A study of Mus musculus with 18 samples.

Results

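Long noncoding loci whose level was highest in priSG-B, the day 9 germ cell type of the ICR mouse testis, are described here: Gm48610, Gm12744, Gm13075, Gm37214, Appbp2os, Gm12953, Gm45184 and Gm43461. These 8 of the 13218 loci in the table were picked by name because their levels were high in all 3 priSG-B libraries and low in the other 15. All 8 passed the filter of 1 FPKM in at least 3 libraries, which left 4117 loci for testing, and all 8 also passed it without the priSG-B libraries. FPKM divides the fragments of a locus by its length and by the size of the library, so levels are per length. The priSG-B libraries came from postnatal day 9. They were set against priSG-A from day 6, plpSC from day 14, pacSC from day 21, rST from day 35 and elST from day 56, each type having 3 libraries by the labels, although the series text speaks of duplicates. The labels leave the type names unexplained, and by the field's usage SG means spermatogonia, SC spermatocytes and ST spermatids. Every group is of the ICR strain, and no treatment or mutation is named. Germ cells were enriched by STA-PUT sedimentation, which sorts mainly by size and leaves some other cells, RNA was taken with Trizol, and libraries were made with the Illumina TruSeq RNA kit. The tissue is given as testis for every library except elST 3, whose source name alone says so. No label says whether the 3 libraries of a type came from separate animals, and the p-values therefore cover only the spread among libraries, which may be technical.

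Long noncoding RNAs are transcripts without a recognised protein product. Many are antisense, that is, they are read from the strand opposite to a coding gene and share sequence with its exons. The testis is known for transcribing many such loci, and noncoding transcripts often contain copies of transposable elements, such as the B2 family of short interspersed elements of the mouse. B2 elements are themselves transcribed by RNA polymerase III and occur in very many near-identical copies.

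By the GENCODE M21 annotation of mm10, 4 of the 8 loci are antisense loci that share exon sequence with a coding gene on the opposite strand. These are Gm12744, Gm13075, Gm12953 and Appbp2os. Gm12953 (chr4:116551740-116552627, plus strand) overlaps Tmem69, which encodes a membrane protein, and Appbp2os (chr11:85234775-85238304, plus strand) overlaps Appbp2. Among all loci tested, 30.6% share exon sequence with a coding gene on either strand, which is a wider count than sharing on the opposite strand. The kit does not mark strand and the coding genes are not in the table, so reads of these 4 loci and of their partners cannot be told apart where the exons overlap. The overlap covers 100% of the exonic bases of Gm12744 and 87.5% of those of Gm12953. It covers 34.5% in Appbp2os and 22.5% in Gm13075. No exonic base of Gm12744 is thus free of its partner, and all its values may include reads of the coding gene.

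The other 4 loci share no coding exon. Gm37214 (chr1:183420655-183422213, plus strand) is annotated as sense intronic inside Hhipl2, so its reads and those of unspliced Hhipl2 RNA cannot be told apart. Gm48610 (chr12:4572401-4576756, minus strand) is a lincRNA of 3 exons whose nearest coding gene, 15882 bp away, is Itsn2, a scaffold protein of endocytosis. Gm45184 (chr7:127434422-127439392, plus strand) is a lincRNA 2744 bp from the zinc finger gene Zfp689. Gm43461 (chr5:147427738-147428733, plus strand) has 1 exon and carries the class TEC, for loci that await experimental proof. It lies 1428 bp from Pan3, a subunit of a poly(A) tail shortening enzyme.

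A stretch of sequence is common to 6 of the 8 loci. The longest run found whole in these 6 is 41 bases long. It lies in the longest transcript of Gm48610 at bases 283 to 323, and it is shown because neither the choice of loci nor the annotation classes used it. It was found by comparing the members with each other after their levels were known. In the GENCODE M21 transcripts of 5 of the 6 carriers, the shared run is in capitals, with 20 bases on each side in lower case. The strand given is that of the printed letters, which is the locus's own strand for Gm48610, Gm37214 and Gm45184 and the opposite strand for Gm12953 and Gm43461. In Gm13075 the run is on the locus's own strand.
Gm48610, chr12:4572457-4572537, minus strand: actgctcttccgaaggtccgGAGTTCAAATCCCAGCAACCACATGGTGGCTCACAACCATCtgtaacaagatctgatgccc
Gm37214, chr1:183422068-183422148, plus strand: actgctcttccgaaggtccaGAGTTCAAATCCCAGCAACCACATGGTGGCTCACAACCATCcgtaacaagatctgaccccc
Gm45184, chr7:127439258-127439338, plus strand: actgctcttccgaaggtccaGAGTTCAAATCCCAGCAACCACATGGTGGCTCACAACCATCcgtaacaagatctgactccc
Gm12953, chr4:116552192-116552272, minus strand: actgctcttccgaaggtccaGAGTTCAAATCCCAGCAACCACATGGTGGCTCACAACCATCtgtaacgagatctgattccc
Gm43461, chr5:147428443-147428523, minus strand: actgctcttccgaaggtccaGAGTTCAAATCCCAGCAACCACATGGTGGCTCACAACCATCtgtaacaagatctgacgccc

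The likeness reached well beyond the run. In local alignments to Gm48610, 94.9 to 98.2% of the aligned bases of the other 5 carriers were identical, over a stretch that began at base 221 or 227 of Gm48610 and ended at base 395 or 396. Between pairs of the 6 carriers the longest identical run was 41 to 103 bases (median 71.0), while pairs that involve Gm12744 or Appbp2os shared at most 15 bases. The letters are those known as background for B2 elements, although no repeat annotation was used here. Reads that fall inside the stretch match many places of the genome, and the authors' treatment of such reads is not stated in the sources used here.

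**Figure D1:**
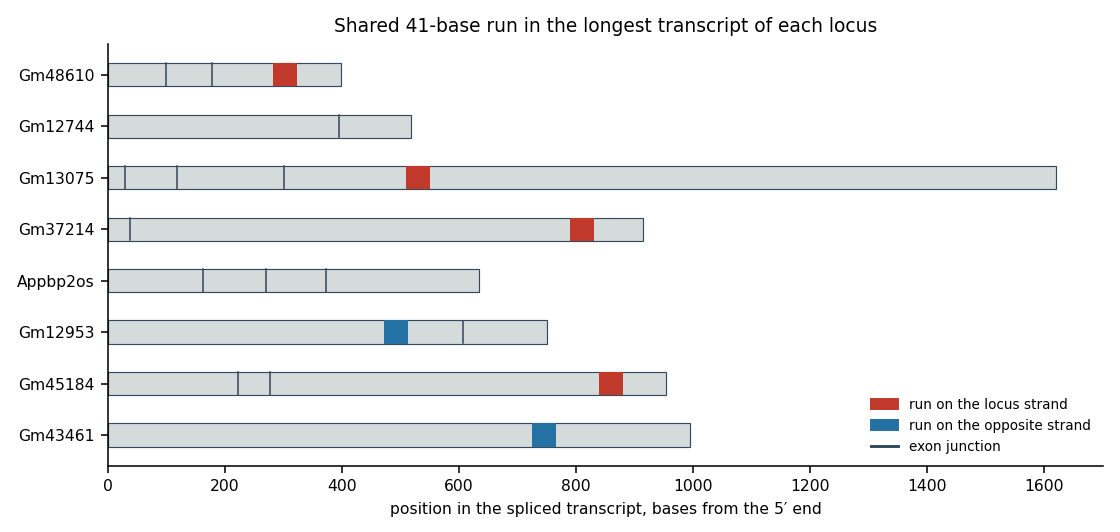
The longest annotated transcript of each of the 8 loci, drawn to scale in bases from its 5′ end, with exon junctions as thin lines and the 41-base run as a filled box (red on the strand of the locus, blue on the opposite strand). The run is present in 6 of the 8 loci and lies within 74 to 85 bases of the 3′ end in Gm45184, Gm48610 and Gm37214.

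Where a locus may hold further copies of the repeat-like stretch, only the copy around the run was examined. In 3 of the loci this copy lies at the end of the annotated transcript, with 74 bases after the run in Gm45184, 76 in Gm48610 and 85 in Gm37214. Their last 50 bases show this, with AATAAA, a hexamer that can direct 3′ end formation and that overlaps itself in these repeats, in capitals where it occurs.
Gm48610, chr12:4572401-4572450, minus strand: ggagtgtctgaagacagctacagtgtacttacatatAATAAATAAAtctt
Gm37214, chr1:183422164-183422213, plus strand: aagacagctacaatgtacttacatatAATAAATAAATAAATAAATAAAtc
Gm45184, chr7:127439343-127439392, plus strand: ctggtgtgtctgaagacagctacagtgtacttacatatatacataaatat

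Either AATAAA or its variant ATTAAA occurred in the last 50 transcript bases of 4 of the 8 loci (Gm48610, Gm13075, Gm37214 and Appbp2os), and in 47.2% of the tested loci with a sequence (1936 of 4103). A RefSeq promoter on GRCm38.p6 was matched for 1 of the 8 loci, Appbp2os, and is not printed because it lies over the start of Appbp2.

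Several facts about the libraries bear on every value. The ribosomal RNA-derived locus AY036118 stood at 7.25 to 36.2 FPKM in 6 libraries, namely all 3 of priSG-B with pacSC 1, pacSC 2 and elST 3, and at 1998 to 13911 FPKM in the other 12. These 6 are called low-AY036118 libraries and were also deeper, at 65.4 to 92.5 M fragments (mega, inferred from the FPKM steps) against 31.6 to 56.8 M, with longer inferred fragments (230 to 270 bp against 200 to 210 bp). Within priSG-B the libraries were alike across loci, with Pearson's r of 0.967 to 0.983, whereas r within the other types ran between 0.0271 and 0.964 (across loci, which are not independent replicates). None of the coding marker genes listed for germ cells or for Sertoli, Leydig and peritubular cells is in the table, so the types could not be checked against them. The noncoding locus 1700027A15Rik, which overlaps the spermatid gene Tnp1, went against the label in 4 libraries. It stood at 11.8 FPKM in priSG-A 3 and 874 FPKM in plpSC 3, types of ages before spermatids appear, and at 0 FPKM in rST 1 and 0.570 FPKM in elST 1. In bulk RNA such as this, fewer cells of a type and less RNA per cell cannot be told apart.

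The values that follow in this comparison are the ones by which the loci were chosen, so they are a description and were not tested. Gm48610 was the most abundant of the 8. It stood at 152, 149 and 178 FPKM in priSG-B, against 29.9 and 33.5 FPKM in pacSC 1 and 2 and 27.1 FPKM in elST 3. In the 12 high-AY036118 libraries it ran between 0.797 and 11.1 FPKM with a median of 3.55 FPKM. Its priSG-B mean of 159 ± 16.03 FPKM (SD, n = 3) ranked 20 among the 4117 loci tested, and the 3 other low-AY036118 libraries lay between priSG-B and all 12 remaining libraries without overlap.

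Gm12744, one of the antisense loci, had the lowest mean outside priSG-B. It stood at 16.3, 17.96 and 16.6 FPKM in priSG-B, or 16.9 ± 0.883 FPKM (SD, n = 3), against 1.77, 1.48 and 2.78 FPKM in pacSC 1, pacSC 2 and elST 3. It was listed at 0 in plpSC 3, pacSC 3, rST 2 and elST 2 and reached at most 0.819 FPKM among the 12 high-AY036118 libraries. The inferred fragments behind these values were 333, 465 and 406 in priSG-B and 33, 26 and 45 in pacSC 1, pacSC 2 and elST 3, while no high-AY036118 library held more than 12. For Gm12744 the order of the libraries below about 1 FPKM therefore rests on a handful of fragments.

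Gm13075 and Gm37214 were close to each other in level. Gm13075 stood at 20.8, 17.9 and 22.6 FPKM in priSG-B, against 2.19, 2.74 and 2.42 FPKM in pacSC 1, pacSC 2 and elST 3 and 0.0652 to 1.54 FPKM in the 12 high-AY036118 libraries. Gm37214 stood at 21.8, 21.9 and 25.4 FPKM in priSG-B, against 3.06, 2.66 and 2.59 FPKM in pacSC 1, pacSC 2 and elST 3 and 0.0408 to 2.02 FPKM in the 12. For both loci the 3 sets of libraries were ordered in this way with no overlap. In all, 6 of the 8 loci had pacSC 1, pacSC 2 and elST 3 above all 12 high-AY036118 libraries, as did 19.6% of the loci tested.

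Gm12953, Gm45184 and Gm43461 formed a second tier. Gm12953 stood at 44.2, 38.9 and 50.5 FPKM in priSG-B, against 7.37, 6.82 and 6.33 FPKM in pacSC 1, pacSC 2 and elST 3 and 0 to 4.71 FPKM in the 12 high-AY036118 libraries. Gm43461 stood at 38.7, 36.2 and 44.2 FPKM in priSG-B, against 6.95, 7.51 and 6.97 FPKM in pacSC 1, pacSC 2 and elST 3 and 0.182 to 5.54 FPKM in the 12. Both kept the same order of sets as Gm48610. Gm45184 stood at 45.4, 41.5 and 52.4 FPKM in priSG-B, against 7.02, 8.78 and 8.26 FPKM in pacSC 1, pacSC 2 and elST 3 and 0.257 to 7.42 FPKM in the 12. Its low-AY036118 and high-AY036118 ranges overlapped outside priSG-B, because priSG-A 2 stood above pacSC 1.

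Appbp2os was the least separated of the 8. It stood at 46.9, 52.7 and 39.5 FPKM in priSG-B, against 9.50, 6.74 and 7.52 FPKM in pacSC 1, pacSC 2 and elST 3. The 12 high-AY036118 libraries ran between 1.42 and 8.59 FPKM, so plpSC 2 stood above pacSC 2 and elST 3. It was above 1 FPKM in all 15 other libraries. At the other end, Gm12744 reached 1 FPKM in only 3 of the 15.

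**Figure D2:**
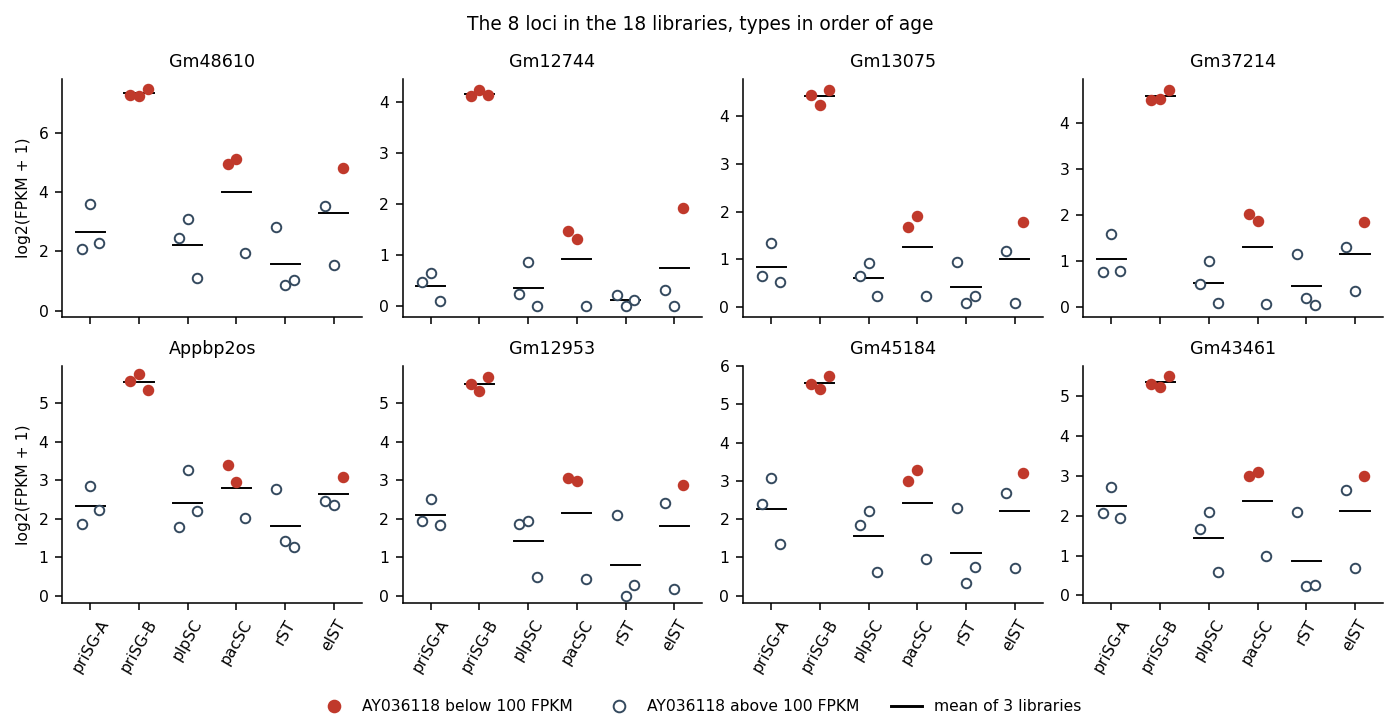
Levels of the 8 loci as log2(FPKM + 1) in each of the 18 libraries, with the types in order of age, filled points for libraries with AY036118 below 100 FPKM and bars for type means. In every panel the 3 priSG-B points stand above all others, and in 6 panels the filled points of pacSC and elST stand above all 12 open points.

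The label of these loci as high in priSG-B alone holds for the highest level and not for presence. Relative to its own priSG-B mean, each locus averaged 11.8 to 18.9% in pacSC 1, pacSC 2 and elST 3 (median over loci 16.2%) and 1.25 to 8.61% in the 12 high-AY036118 libraries (median 3.75%). The difference of mean log2(FPKM + 1) between priSG-B and the 3 other low-AY036118 libraries was 2.32 to 2.67 with a median of 2.47, where the median over all 4117 loci was -0.83. Between priSG-B and the 12 it was 3.35 to 5.13 with a median of 3.92, where all loci had -0.51. A pseudocount of 1 FPKM understates these differences for the low loci.

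Outside priSG-B the median of the 8 loci, taken as percent of each locus's priSG-B mean, was lowest in the 5 libraries with the most 1700027A15Rik. Single loci departed from this, as Appbp2os was lower in plpSC 1 than in some of the 5. The median was 0.480% in rST 2 and 0.599% in rST 3, with 1700027A15Rik at 4539 and 3175 FPKM. It was 0.880% in plpSC 3, 1.18% in elST 2 and 1.29% in pacSC 3, with 1700027A15Rik at 874, 875 and 1195 FPKM. In the libraries where 1700027A15Rik was below 1 FPKM the median was 4.07 to 9.67%. The part of spermatid RNA in these low values was not tested.

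**Figure D3:**
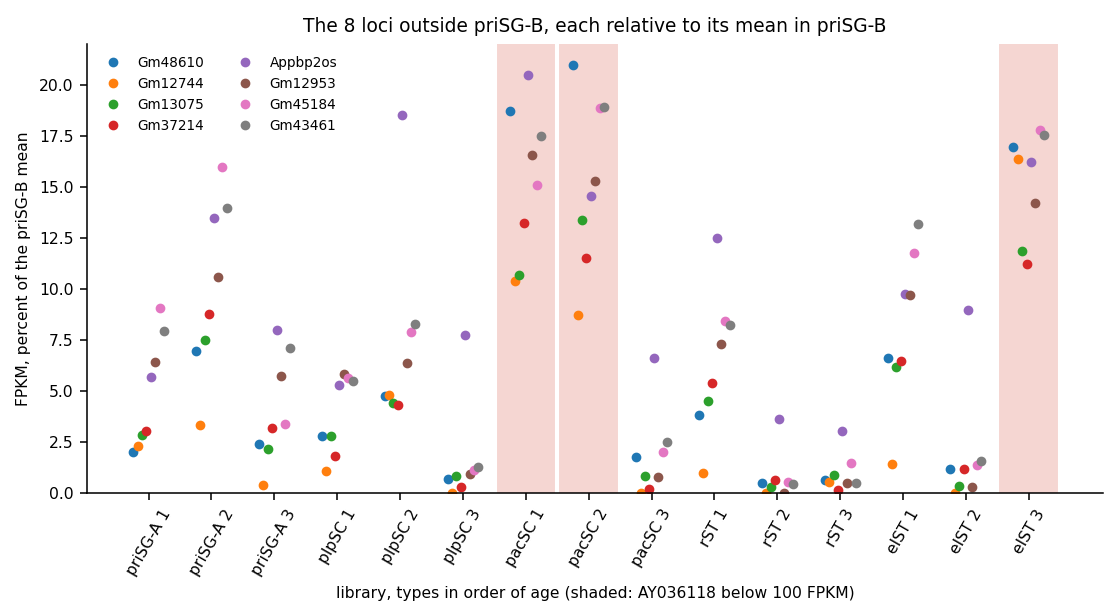
FPKM of each of the 8 loci in each of the 15 libraries outside priSG-B, as a percent of its priSG-B mean, with the types in order of age and low-AY036118 libraries shaded. The shaded pacSC 1, pacSC 2 and elST 3 hold 8.74 to 21.0%, and rST 2 and rST 3 hold at most 3.63%.

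By type, the means fell in one order for 7 of the 8 loci, which was priSG-B, pacSC, elST, priSG-A, plpSC and rST from high to low. In Appbp2os plpSC stood above priSG-A. The pacSC and elST means pool low-AY036118 with high-AY036118 libraries, and the 8 loci share the same libraries. In the high-AY036118 libraries of these types the median of the 8 was 1.29% of the priSG-B mean in pacSC 3. It was 1.18% in elST 2 and 8.18% in elST 1. Only the step between priSG-B and pacSC was free of overlap, since the libraries of every later pair of neighbours in the order overlapped in all 8 loci. For Gm48610 the means by age were 6.07 ± 4.36 FPKM in priSG-A, 159 ± 16.03 FPKM in priSG-B, 4.41 ± 3.22 FPKM in plpSC, 22.04 ± 16.8 FPKM in pacSC, 2.66 ± 3.01 FPKM in rST and 13.2 ± 12.8 FPKM in elST (SD, n = 3 each). Its coefficient of variation was thus 10.1% in priSG-B and between 71.9 and 113% in the other types. Within priSG-B the coefficient of variation of the 8 loci was 5.21 to 14.2% (median 10.9%), beside a median of 8.34% over the 200 tested loci that averaged at least 10 FPKM there. The highest priSG-B library was priSG-B 3 for 6 of the 8 loci and priSG-B 2 for Gm12744 and Appbp2os.

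The pattern itself was not rare in the table. The lowest priSG-B library stood above the highest other library in 245 of 4117 loci, or 5.95%, and in all 8 members, which were chosen for it. Of the 245, 73 passed the filter only through the priSG-B libraries and so had to be high there. With the filter applied to the 15 other libraries, the count was 172 of 3995 loci, or 4.31%. The lowest priSG-B value was 4.16 times (Appbp2os) to 7.12 times (Gm37214) the highest value elsewhere. Ranked by this ratio, the 8 loci held places 2, 3, 6, 9, 13, 15, 18 and 22, and 14 other loci stood among the first 22. The 3 other loci with the highest ratio were BC051077 (7.25), Gm15541 (6.50) and Gm37607 (6.07). By class, the share of tested loci with the pattern was 6.52% of antisense loci, 3.43% of lincRNAs, 6.65% of TEC loci, 4.46% of sense intronic loci, 11.9% of processed transcripts and 6.30% of loci named as opposite strand of a coding gene.

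A further test asked whether the loci were higher in low-AY036118 than in high-AY036118 libraries that carry the same type label. Its difference is taken within pacSC (libraries 1 and 2 against 3) and elST (library 3 against 1 and 2), while all 18 libraries, priSG-B included, give the spread. All 8 loci had a positive difference within each of the 2 types. Over all loci, the fitted difference was above 0 in 49.0%, and the share positive within both types was not counted. The 8 share the same libraries, so their signs are not separate results. By limma with Benjamini-Hochberg adjustment over all loci, 2 of the 8 were called higher, beside 6.39% of all loci called higher and 0.146% called lower. The median difference of the 8 was 1.63 on the log2(FPKM + 1) scale, beside -0.02 over all loci. At an unadjusted p under 0.05, 7 of the 8 were higher, beside 15.5% of all loci, but 1 of the 8 without pacSC 3 (6.68% of all loci) or after quantile normalization (10.6%).

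The called loci were Gm12744 and Gm48610. Gm12744 stood at 1.77 and 1.48 FPKM in pacSC 1 and 2 against 0 in pacSC 3, and at 2.78 FPKM in elST 3 against 0.246 and 0 FPKM in elST 1 and 2. Its difference was 1.57 ± 0.30 (SE, limma adjusted p = 0.00756), with 1.39 within pacSC and 1.76 within elST. Gm12744 reached 1 FPKM only in low-AY036118 libraries, so it entered the test through the group in which it was then called higher. The filter thus favoured this call. All exonic bases of Gm12744 also lie in exons of a coding gene on the opposite strand, so the call cannot be assigned to the antisense locus. Gm48610 stood at 29.9 and 33.5 FPKM in pacSC 1 and 2 against 2.80 FPKM in pacSC 3, and at 27.1 FPKM in elST 3 against 10.6 and 1.90 FPKM in elST 1 and 2. Its difference was 2.69 ± 0.75 (SE, limma adjusted p = 0.0494), with 3.10 within pacSC and 2.28 within elST, and so it only just passed. Neither call held without pacSC 3 (limma adjusted p = 0.182 for Gm12744 and 0.743 for Gm48610) or without elST 3 (limma adjusted p = 0.143 and 0.178). With pacSC and elST fitted alone, priSG-B gave nothing to the spread. Then 0 of the 8 were called (limma adjusted p = 0.152 for Gm12744 and 0.276 for Gm48610), beside 0 of 4117 loci called higher. At an unadjusted limma p under 0.05, 6 of the 8 were higher, beside 11.4% of all loci. Over the whole table, too, few calls were left in these fits.

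The other 6 were not called. Without elST 1, however, Gm12953 and Gm13075 were called as well (limma adjusted p = 0.0434 and 0.0453). This made 4 of the 8, beside 212 of the 4117 loci called higher. With all libraries Gm12953 differed by 2.08 ± 0.73 (limma adjusted p = 0.116), Gm45184 by 1.85 ± 0.73 (limma adjusted p = 0.179) and Gm43461 by 1.68 ± 0.69 (limma adjusted p = 0.190). Gm37214 differed by 1.45 ± 0.48 (limma adjusted p = 0.0924), Gm13075 by 1.35 ± 0.43 (limma adjusted p = 0.0839) and Appbp2os by 0.91 ± 0.56 (limma adjusted p = 0.459). Appbp2os thus had the smallest difference, and it alone missed an unadjusted p under 0.05.

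Several things move with this contrast. 1700027A15Rik stood at 75.8 and 84.9 FPKM in pacSC 1 and 2 against 1195 FPKM in pacSC 3, and at 73.0 FPKM in elST 3 against 0.570 and 875 FPKM in elST 1 and 2. Across loci elST 3 was closest to pacSC 2 (Pearson's r of 0.976), elST 2 to plpSC 3 (0.960) and elST 1 to rST 1 (0.952). In the same way pacSC 3 was closest to rST 3 (0.953). The libraries set against each other thus share a type by label, while their profiles differ beyond AY036118. Depth and fragment length differ as given above. The part of these things in the differences was not tested. Without the 4 libraries that go against their labels, a choice made after the data were seen, 7 of the 8 loci were called higher, all but Appbp2os, beside 29.4% of all loci. Of these 4 libraries only elST 1 enters the difference, and the others enter only the spread. The differences were thus those of the fit without elST 1, such as 2.64 for Gm12953. The high-AY036118 libraries left in the contrast were pacSC 3 and elST 2, both with more 1700027A15Rik than pacSC 1, pacSC 2 and elST 3. AY036118 and 1700027A15Rik therefore cannot be told apart in it.

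**Figure D4:**
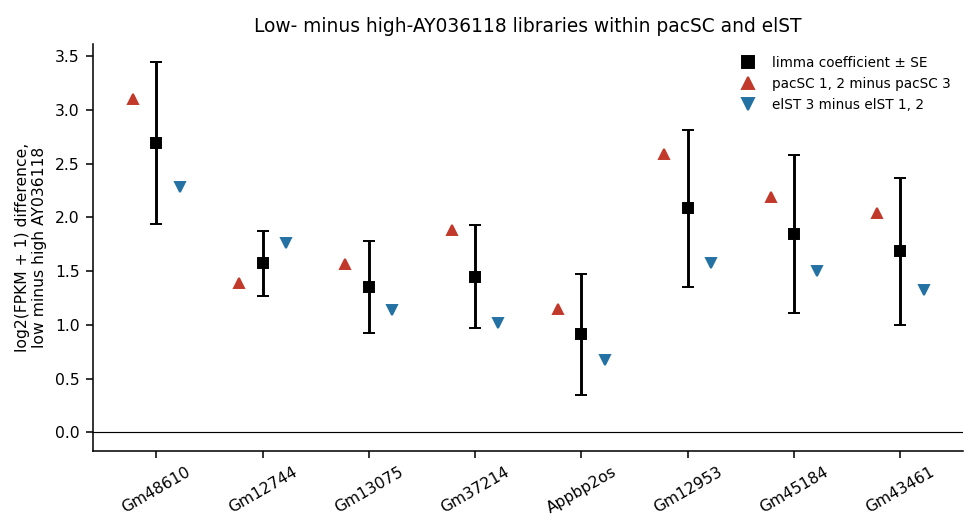
Difference of mean log2(FPKM + 1) between low-AY036118 and high-AY036118 libraries for each of the 8 loci, as the limma coefficient with its SE (squares) and separately within pacSC and within elST (triangles). All 24 points lie above 0, from 0.67 (Appbp2os within elST) to 3.10 (Gm48610 within pacSC), and the pacSC value is the higher of the pair in every locus but Gm12744. The 8 loci share the same libraries, so the points are not separate results.

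Among the 5 types other than priSG-B, limma's F test called none of the 8 loci (adjusted p of 0.471 to 0.628, smallest unadjusted p = 0.163 for Gm48610). The 8 were chosen for low levels in these same 15 libraries, so the absence of a call is partly set by the choice. None of the 4117 loci tested passed, or 0.0%, and 168 of them (4.08%) had an unadjusted p under 0.05. With no filter 5 of 12224 loci passed. Limma run with neither trend nor robust estimation called 0 as well. Without the 4 libraries that go against their labels 3198 loci passed, or 77.7%, and none of the 8. The choice of the 8 as low in these types bears on that count too.

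Loci other than the 8 also carry the shared run, and Snhg14 is among them with several rows, each counted as a locus. Among the tested loci with a sequence, 54 of 4103 (1.32%) carried the 41-base run on either strand, 6 of them members. Of the other 48, 22 (45.8%) had their lowest priSG-B library above the highest other library, against 214 (5.29%) of the 4047 loci without the run. This share is partly set by the filter, since 9 of the 48 passed it through priSG-B alone, all 9 with the pattern. With the filter of 1 FPKM applied to the 15 other libraries, a choice made after the data were seen, 13 of 39 carriers (33.3%) had the pattern, against 150 of 3934 loci without the run (3.81%). By strand this was 8 of 22 (36.4%) for the run on the locus's own strand and 5 of 17 (29.4%) for the run on the opposite strand only. With no filter it was 26 of 84 carriers (31.0%), against 385 of 12105 loci (3.18%).

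The levels were compared in the same way. With the filter on the 15 other libraries, the median of mean log2(FPKM + 1) in priSG-B minus that in the other 15 was 0.82 in the 39 carriers and -0.62 in the loci without the run. Against pacSC 1, pacSC 2 and elST 3 alone the medians were 0.51 and -0.90. With no filter the 2 groups lay closer, at 0.29 and -0.03 against the other 15. No test was made over these loci, since they share sequence and libraries and the run was read from loci already chosen for priSG-B.

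**Figure D5:**
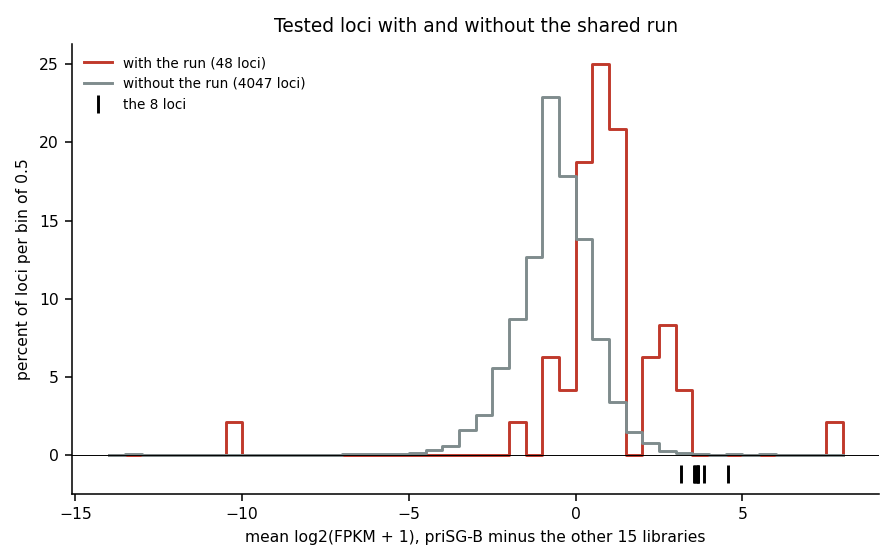
Distribution over tested loci of mean log2(FPKM + 1) in priSG-B minus that in the other 15 libraries, as percent of loci per bin of 0.5, for the 48 loci with the 41-base run (red) and the 4047 without it (grey), the 8 described loci being left out of both curves and marked by ticks. The loci shown passed the filter over all 18 libraries. The curve of loci with the run has its median at 0.86 and that of the others at -0.59, and 1 locus with the run, Gm37750, lies at -10.02.

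The spread among carriers was wide. Gm47551, an antisense locus, and Ftx, which lies near Xist on the X chromosome, carry the run and have the pattern, with priSG-B means of 10213 FPKM and 38.1 FPKM. At the other extreme Gm37750 carries it, and its entry is 0 in each priSG-B library. Gm47551 and Gm37750 were named after their values were seen. For the low-AY036118 difference, limma called 0 of the 48 loci at an adjusted p under 0.05, with a median difference of 0.20, against 261 called higher and a median of -0.03 among the 4047 loci without the run. At an unadjusted p under 0.05, 7 of the 48 (14.6%) were higher, against 623 of the 4047 (15.4%), and limma with neither trend nor robust estimation also called 0 of the 48. Whether the 2 groups differ was not tested.

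Gm12744 and Appbp2os lack the run, as do Gm15541 and Gm37607, and all 4 have the pattern. Of the first 22 loci by the ratio of priSG-B to the highest other library, 12 carried the run, of which 6 are members and 6 are among the 14 others. Whether reads from other copies of the element contribute to the values of the carriers was not tested.

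The 5 tested loci outside the 8 whose profile was most like theirs, by Pearson's r over the 18 libraries with the mean standardized log2(FPKM + 1) of the 8, were Ftx (0.982), Gm48632 (0.978), BC051077 (0.975), Gm15541 (0.972) and Gm47598 (0.969). Of these, 4 carry the run and Gm15541 does not. Ftx stood at 37.6, 34.0 and 42.7 FPKM in priSG-B, against 5.26, 5.43 and 5.01 FPKM in pacSC 1, pacSC 2 and elST 3. BC051077 stood at 9.11, 8.05 and 9.39 FPKM in priSG-B, against 1.11, 1.03 and 1.06 FPKM in those 3. An r of at least 0.95 was reached by 15 of the 4109 other loci and an r of at least 0.9 by 44.

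Among themselves the 8 loci had pairwise r of 0.923 to 0.995 over the 18 libraries (median 0.968), which the priSG-B values by which they were chosen largely set. Over the 15 libraries without priSG-B it was 0.737 to 0.985 (median 0.928), lowest between Gm12744 and Appbp2os. Over the 12 high-AY036118 libraries it was 0.604 to 0.977 (median 0.913), lowest between Appbp2os and Gm12953. The 8 loci share the same libraries, which differ in depth, AY036118 level and spermatid signal, so these are descriptions.

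Noncoding loci within 10000 bp were found for Gm37214, Gm43461, Gm45184 and Gm48610 only, and these neighbours did not share the members' pattern. The antisense members had no such neighbour, so nothing can be said for them. Gm43460, only 97 bp from Gm43461 on the same strand, stood at 1.48, 1.40 and 1.49 FPKM in priSG-B, against 2.60, 3.11 and 2.32 FPKM in pacSC 1, pacSC 2 and elST 3. B130055M24Rik, 9244 bp from Gm45184, stood at 2.37, 2.75 and 2.70 FPKM in priSG-B, against 4.46, 4.45 and 4.61 FPKM in those 3 libraries. For both neighbours priSG-B was thus lower than the other low-AY036118 libraries. Gm46332, 2863 bp from Gm48610, stood at 0.0975 to 0.125 FPKM in priSG-B and reached 11.7 FPKM in plpSC 3. Gm37986, 5807 bp from Gm37214, and D5Ertd605e, 4694 bp from Gm43461, stayed below 1 FPKM in priSG-B.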

How the data were processed

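The authors deposited 1 table of FPKM for 13218 loci with 1 column for each of the 18 libraries. Per the submitters' processing notes the tools were HISAT2 and StringTie and the build mm10. Versions, annotation, strand setting, filters and the treatment of reads with several matches are not stated in the sources used here. Identifiers were matched to GENCODE M21 (13191 of 13218), and 994 rows were at 0 in every library. A further 21 rows repeat the identifier of an earlier row and were kept as separate loci. Depth was inferred from FPKM steps in 3364 single-exon loci, where 92.6 to 98.5% of low values (up to 10 fragments) were whole within 0.02 fragments. It was 31.6 to 92.5 M fragments.

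Values were analysed as log2(FPKM + 1) with limma 3.58.1 in R 4.3.3 (trend, robust, two-sided), with Benjamini-Hochberg adjustment over 4117 loci and a threshold of 0.05. One fit had 1 coefficient per type and 1 for libraries with AY036118 below 100 FPKM. The other had the types alone, with an F test of the 5 types other than priSG-B. Both were tested on simulated data. The AY036118 fit recovered 2% of loci changed by 1 log2 unit, 38% of those changed by 2 and 88% of those changed by 4. For the F test these shares were 6, 62 and 74%. A locus that was not called may therefore still differ. No label names a batch. Alternatives were the pseudocount, the filter, quantile normalization, the variance model, the replicate number as a block, the AY036118 term, the filter without priSG-B (added after the data were seen), a fit of pacSC and elST alone and leaving out libraries. The members and lists were chosen with earlier results of these data known. Named besides the members are AY036118, 1700027A15Rik, overlapping and neighbouring genes by position, the 5 loci most like the members and the 3 others with the highest ratio of priSG-B to the highest other library, with Gm47551 and Gm37750, chosen after their values were seen. Some overlapping genes are not reported here. No libraries were identical. Sequences came from GENCODE M21 transcripts. Tables and figures used Python 3.11.15, numpy 2.4.6, pandas 2.3.3 and matplotlib 3.10.9.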

Additional observations from a re-analysis of the deposited data

How the results depend on the processing

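The 269 loci called for low against high AY036118 became 17 with a pseudocount of 0.1 FPKM, 528 with no filter on low values, 133 with a filter of 5 FPKM, 96 after quantile normalization and 1 with pacSC and elST alone. Leaving out 1 library gave 9 (without pacSC 3) to 280, with 28 without elST 3, 157 and 139 without pacSC 1 or 2, and leaving out the 4 libraries that go against their labels, an alternative added after the data were seen, gave 2657 (1210 higher, 1447 lower). The replicate block gave 312 and changed no call among the 8. Same-numbered libraries deviated together in all 3 pairs of priSG-A with plpSC (r of 0.650 to 0.728), of plpSC with pacSC (0.307 to 0.348) and of rST with elST, but not of any other 2 types, with r over 0.1 in 25 of 45 pairs (range -0.826 to 0.869). The labels tie no number to an animal or batch, and the numbers were not taken to pair the samples. Of the 8 loci, 0 were called with the pseudocount of 0.1, after quantile normalization, without pacSC 3, without elST 3 or with pacSC and elST alone, 4 without elST 1 and 3 with neither trend nor robust estimation. The call of Gm48610 was lost in 9 of 14 alternatives and that of Gm12744 in 5 of 14, with no change of sign in any of the 8. Over all loci 212 were called higher without elST 1 and 293 with neither trend nor robust estimation. After quantile normalization the median of the 8 was 1.01 and that of all loci -0.20. The F test count of 0 became 5 with no filter and 3198 without the 4 libraries, and was 0 to 1 when 1 library was left out (1 without pacSC 3 or elST 1). The replicate block gave 0 and an unadjusted p under 0.05 in 656 loci. None of the 8 passed under any of 23 alternatives. The 245 loci with priSG-B above every other library became 172 with the filter applied outside priSG-B, 420 with no filter, 103 at 5 FPKM, 382 after quantile normalization and 257 to 269 without 1 priSG-B library, with all 8 members in each. The share of other run carriers with that pattern, 45.8%, was 68.8% for a 29-base run, 54.8% for an 18-base run and 23.9% for a 17-base run of the same 6 loci, 56.2% after quantile normalization (8.55% without the run), 54.5% at 5 FPKM, 33.3% with the filter outside priSG-B, 31.0% with no filter and 45.8 to 47.9% without 1 priSG-B library. The cause of these changes was not tested. Values of Gm12744 below about 1 FPKM rest on at most 12 inferred fragments and carry little order. In longer loci such values can rest on about 1 fragment (Gm37214 in pacSC 3) or on about 25 (Gm43461 at 0.9995 FPKM in pacSC 3).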
